A study of Homo sapiens with 3 samples.

Results

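AMP-activated protein kinase (AMPK) is the main sensor of cellular energy shortage. The genes examined here were its 7 subunit genes and 2 genes of kinases that switch it on, 9 genes in all among 20037 protein-coding genes. They were the catalytic α subunits PRKAA1 and PRKAA2, the scaffolding β subunits PRKAB1 and PRKAB2, the nucleotide-binding γ subunits PRKAG1, PRKAG2 and PRKAG3, and the upstream kinases STK11 (LKB1) and CAMKK2. Every ERRγ peak whose nearest transcription start site (TSS) belonged to one of these genes was taken, at any distance. This gave 4 of 15223 peaks, for 3 of the 9 genes. PRKAG2 had 2 peaks, STK11 and PRKAB2 had 1 each, and the other 6 genes had none.

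The peaks came from chromatin immunoprecipitation with sequencing (ChIP-seq) of estrogen-related receptor gamma (ERRγ, gene ESRRG) in BT-474, an established luminal breast cancer line with ERBB2 amplification. The ERRγ group had 2 libraries made with a custom antibody and the input group had 1 library. All were from vehicle-treated cells taken 90 min after fresh medium, read as single reads of 50 bp. The authors deposited 1 merged peak list with no value per library, so no replicate spread or test between samples exists here, and whether a given peak was present in both libraries is unknown.

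AMPK is a trimer of 1 α, 1 β and 1 γ subunit. It is switched on when AMP or ADP binds the γ subunit and an upstream kinase phosphorylates the activation loop of α; LKB1 does so under energy stress and CAMKK2 when calcium rises. Active AMPK favours catabolism and mitochondrial renewal and restrains lipid and protein synthesis. ERRγ is an orphan nuclear receptor that drives genes of oxidative metabolism, and the coactivator PGC-1α, which binds ERRs, is itself an AMPK substrate.

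No ERRγ peak within 1 kb of a TSS was named for any of the 9 genes. A count of 0 of 9 allows a share of up to 33.3%, beside 4.16% of all protein-coding genes. Within 10 kb it was 2 of 9 (22.2%, exact Clopper-Pearson 95% interval 2.81 to 60.0), STK11 and PRKAG2, beside 11.5%. Within 50 kb it was still 2 of 9, beside 22.6%, and at any distance 3 of 9 (33.3%, 7.49 to 70.1), beside 29.6%. The interval of 9 genes covers the background at each of these distances, so no difference from other genes was detectable. At any distance, a gene with few neighbours is named more readily. The intervals cover counting error over genes only.

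Among the γ subunits, PRKAG2 carried both of the peaks. PRKAG2 encodes the γ2 subunit, whose mutations cause a cardiomyopathy with glycogen storage. The stronger peak, chr7:151413950-151415395 on hg19, scored 198.54 and lay in intron 3 of 15 of the transcript NM_016203. In the deposited annotation its nearest start was that of a different PRKAG2 transcript, NM_024429, 85.3 kb further along the gene. Judged by the spacing of the starts, a PRKAG2 start in the newer GRCh38.p14 build lies nearer to this peak. The second peak, chr7:151515875-151517526, scored 136.25 and lay in intron 1 of 15 of NM_016203, 4743 bp upstream of the start of the transcript NM_001040633. Both peaks were thus inside the body of one PRKAG2 transcript and upstream of the starts of others, with 102.0 kb between their centres.

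The score is the authors' own value per peak, without a stated unit. Its lowest value was 50, its median 106 and its highest 3227. The PRKAG2 peaks scored above 71.6% and 59.8% of all peaks, and above the median of 109 over all 6333 intronic peaks. Having 2 or more named peaks put PRKAG2 with 13.0% of all protein-coding genes and 43.9% of those with any peak. PRKAG1, the widely expressed γ1 subunit, and PRKAG3, the γ3 subunit of skeletal muscle, had no peak. PRKAG2 had 5 of the 13 promoter windows of the 9 genes, described below. The number of starts per gene was not taken into account.

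STK11 had the peak closest to a start site. STK11 encodes LKB1, the tumour suppressor kinase lost in Peutz-Jeghers syndrome. Its peak, chr19:1207331-1208661 on hg19, was centred 2198 bp downstream of the start of NM_000455, in intron 1 of 9, and scored 143.33, above 61.5% of all peaks. The median over the 2049 peaks lying between 1 and 10 kb from a TSS was 124. No peak was named for CAMKK2, which encodes the other upstream kinase.

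Of the β subunits, PRKAB2 had the weakest and most ambiguous peak of the 4. The β2 subunit is prominent in skeletal muscle and carries a glycogen-binding module. The peak, chr1:146581032-146582062 on hg19, scored 61.85, above only 17.2% of all peaks, and was annotated as intergenic, 62.6 kb downstream of the start of NM_005399. At that distance the name says only that no other annotated TSS was nearer. PRKAB1, the β1 subunit gene, had no peak.

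No peak was named for the catalytic subunit genes, but one lay inside PRKAA1. This peak, chr5:40774768-40776294 on hg19, covered exon 3 of 9 of NM_006251, a transcript of PRKAA1, which encodes the α1 subunit. It was named for the neighbouring gene TTC33 because the start of TTC33 was nearer, with the peak 19.5 kb upstream of it. It scored 200.39, above 71.8% of all peaks and close to the stronger PRKAG2 peak. Only 121 peaks (0.795%) were annotated as exonic, with a median score of 107. Counted by the transcript in which a peak lay, 3 of 9 genes held a peak (PRKAA1, PRKAG2 and STK11; 33.3%, exact 95% interval 7.49 to 70.1), beside 18.6% of all protein-coding genes. Such renaming was common in the list: of 7156 peaks inside an annotated gene, 1695 (23.7%) were named for a different gene. PRKAA2, the α2 subunit gene, had no peak by either count.

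**Figure D1:**
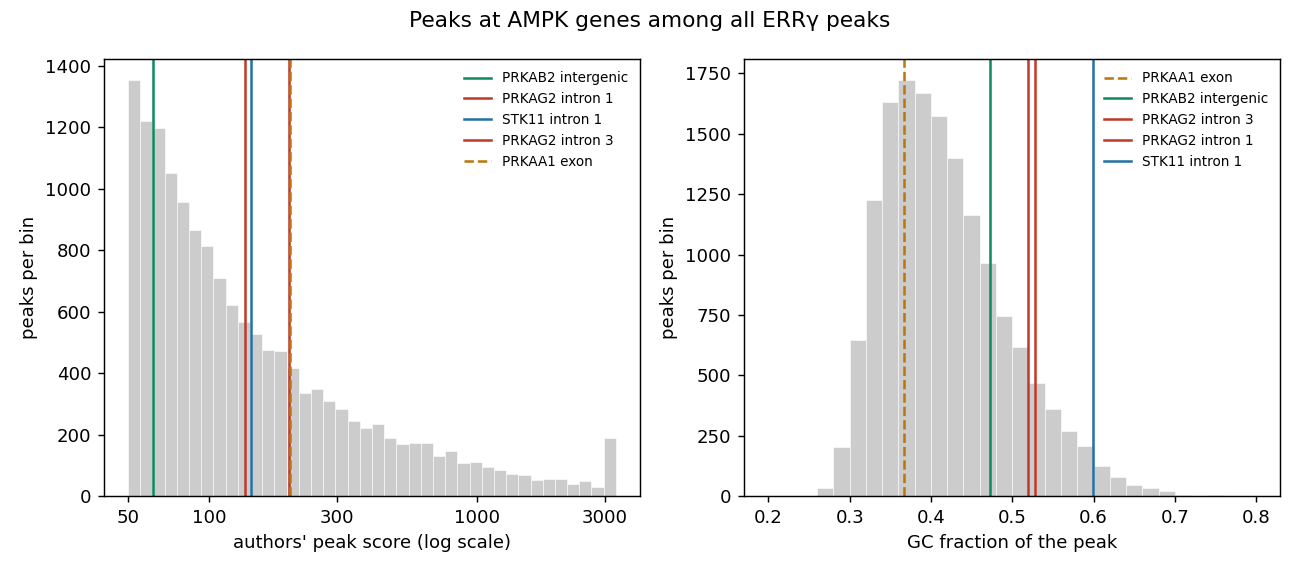
Histograms of the authors' score (left, log axis) and of GC fraction (right) over all 15223 peaks in grey, with 1 vertical line for each of the 4 peaks named for AMPK genes and a dashed line for the exon peak in PRKAA1 that was named for TTC33. All 5 peaks scored between 61.85 and 200.39, far below the tied scores of 3100 at the right edge, and the STK11 and PRKAG2 peaks lay in the GC-rich tail.

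The 3 peaks in PRKAG2 and STK11 introns were rich in GC for this list. The STK11 peak had a GC fraction of 0.599, higher than 97.8% of all peaks, and a CpG fraction of 0.0496, close to the median of 0.0488 over the 917 peaks within 1 kb of a TSS. The PRKAG2 peaks had GC fractions of 0.519 and 0.528 and CpG fractions of 0.0173 and 0.0224, against medians of 0.407 and 0.00726 over intronic peaks. The PRKAB2 peak had 0.472 and 0.00583. The PRKAA1 exon peak differed, with a GC fraction of 0.367, below the median of 0.405 over all peaks.

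Sequence conservation was at or below the median of the list at the 4 named peaks. The mean conservation score, from 0 to 1, was 0.07 at STK11, equal to that median, 0.01 and 0 at the PRKAG2 peaks and 0 at PRKAB2. A value of 0.01 or less was found at 15.4% of all peaks. The PRKAA1 exon peak had 0.2, near the median of 0.18 over exonic peaks. None of the 5 peaks was annotated to a repeat. A detailed annotation that differed from the main one, as it does for a repeat, was found at 35.5% of all peaks. What share of these were repeats was not counted. Their widths ran from 1031 bp at PRKAB2 to 1652 bp at the PRKAG2 intron 1 peak, around the median of 1220 bp.

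The promoter windows of the AMPK genes were searched for the ERR response element, written TNAAGGTCA, on both strands, in RefSeq sequences of the GRCh38.p14 build (250 bases before to 50 after each start). All 9 genes matched, with 13 windows, 5 of them for PRKAG2. The element was in 1 of the 13 windows, beside 0.951% of all 35116 windows and 1.93% of the 1090 windows of genes with a peak within 1 kb. The shorter motif AGGTCA, which is part of every such element, was in the same single window, beside 13.8% of all windows. The form TCAAGGTCA was in 0 of the 13, beside 0.353%. The promoters of 2 genes are shown up to their start: the PRKAG2 window with the element, and STK11, whose peak was nearest to a start.
PRKAG2, GRCh38.p14 chr7:151736264-151736513, minus strand: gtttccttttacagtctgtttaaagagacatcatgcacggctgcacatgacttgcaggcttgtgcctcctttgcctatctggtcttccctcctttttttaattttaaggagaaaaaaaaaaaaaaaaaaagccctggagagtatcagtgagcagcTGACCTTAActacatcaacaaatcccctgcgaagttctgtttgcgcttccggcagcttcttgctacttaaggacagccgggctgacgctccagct
STK11, GRCh38.p14 chr19:1205528-1205777, plus strand: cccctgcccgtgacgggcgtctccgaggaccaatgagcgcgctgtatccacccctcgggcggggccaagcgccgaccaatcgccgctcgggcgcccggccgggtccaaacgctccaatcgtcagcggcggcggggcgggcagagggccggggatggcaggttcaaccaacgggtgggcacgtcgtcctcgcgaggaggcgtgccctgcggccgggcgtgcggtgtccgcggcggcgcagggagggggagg
The capitals mark the element, which reads TTAAGGTCA on the strand opposite to the gene and spans bases -95 to -87 from the start. STK11 has no match in its window. The builds of the windows and of the peaks differ, and the windows carry no transcript names. Judged by the spacing of the starts, those annotated to the 2 PRKAG2 peaks matched the windows chr7:151632184-151632483 and chr7:151814810-151815109. The window with the element belonged to neither. By the same spacing, its start was the PRKAG2 start of the newer build that lay nearest to the stronger peak, though outside that peak. The sequence under the peaks was not analysed here.

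The 4 loci with a peak at an AMPK gene also held peaks named for other genes within 500 kb. STK11 had 8 other peaks, of which 5 scored higher than its own. The strongest was that of NDUFS7, a complex I subunit gene, with 998 at 175.9 kb. SBNO2, a neighbouring gene, had a peak of 438 on the other side at -41.0 kb, and MIDN and CIRBP had peaks of 182 and 349 at 40.8 and 54.3 kb. PRKAG2 had 4 other peaks within 500 kb of its stronger peak. The nearest was named for GALNTL5, with 56.7 at 200.5 kb, and that of RHEB, the activator of mTOR complex 1, scored 123 at -213.4 kb. PRKAB2 had 3 others, the nearest being that of FMO5 with 249 at 105.8 kb. The PRKAA1 exon peak had 10 others within 500 kb, of which 2 scored higher; the nearest of the 10, named for PTGER4, lay at -193.0 kb and scored 350.

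**Figure D2:**
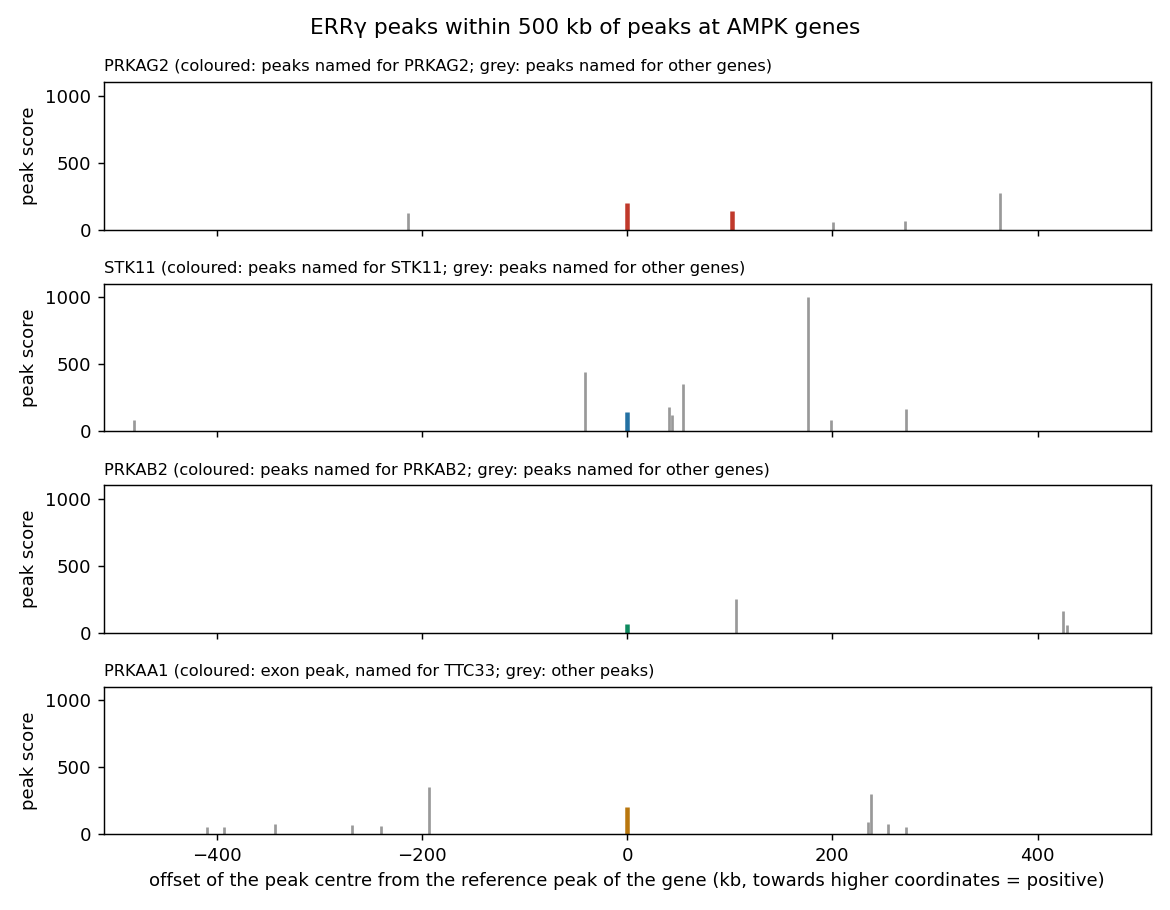
Peak scores (vertical axis) against the offset of each peak centre in kb from the reference peak of PRKAG2, STK11, PRKAB2 and the exon of PRKAA1, within 500 kb. Coloured lines are the peaks of the gene named in each panel, grey lines other peaks; STK11 had 8 other peaks in this window and PRKAB2 had 3.

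The 5 genes without a peak by either count lay between consecutive ERRγ peaks, which follows from how they were picked. Only the lengths of these stretches carry information. In RefSeq gene order, which was taken from a newer build, each was enclosed by a consecutive pair of peaks named for genes on either side. The peak-free stretch on hg19 was 321.0 kb around PRKAB1 (between peaks named for TMEM233 and CIT), 344.2 kb around PRKAG1 (ADCY6 and TUBA1B), 558.1 kb around CAMKK2 (P2RX4 and RHOF) and 679.7 kb around PRKAG3 (VIL1 and NHEJ1). It was 1252.4 kb around PRKAA2, between a peak of 409 named for the lipid phosphatase gene PLPP3 (PPAP2B in the table) and one of 92.7 named for DAB1. Over the 13350 protein-coding genes without a named peak for which a single such stretch could be found, the median was 462.2 kb, with quartiles at 252.8 and 874.0 kb. Only the stretch around PRKAA2 was outside these quartiles, longer than 84.3% of those genes. Some of those genes, PRKAA1 among them, had a peak inside that was named for another gene, unlike the 5.

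The wider AMPK pathway was represented by 51 genes in 3 lists. Within 10 kb of the TSS 11 of the 51 had a peak (21.6%, exact 95% interval 11.3 to 35.3), beside the 11.5% given above, and within 1 kb 2 of 51 (3.92%, 0.478 to 13.5), beside 4.16%. At any distance the count was 24 of 51 (47.1%, 32.9 to 61.5), beside 29.6%. Counted by the transcript in which a peak lay, it was 19 of 51 (37.3%, 24.1 to 51.9), beside 18.6%, and these include FOXO3 and TBC1D1, whose peaks were named for other genes. A longer gene has more room for a peak inside it, and gene length was not taken into account. The lists were chosen by hand and no test was made on them. The 53 peaks of these genes had a median score of 117, and the 4 peaks of the AMPK genes a median of 140.

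Of the 16 LKB1 partners and other inputs to AMPK, 3 had a peak within 10 kb (18.8%, exact 95% interval 4.05 to 45.6), beside 11.5% of all protein-coding genes, and 0 within 1 kb, which allows up to 18.8%, beside 4.16%. CAMKK1, the paralogue of CAMKK2, had the strongest peak of all the lists, 3100 at -2206 bp, in an intergenic position, whereas CAMKK2 had none. The score of 3100 is shared by 158 peaks. SESN1, a sestrin that promotes AMPK activity under stress, had a peak of 184 at 2208 bp in intron 1, and CAB39L, a paralogue of the LKB1 scaffold MO25, had 109 at 1693 bp. The LKB1 pseudokinase partner STRADA had 1 peak, of 156, 10.9 kb upstream of its start, and STRADB had none. The STRADA peak was annotated to intron 9 of 12 of NM_020198, which is not a STRADA transcript. The adiponectin receptor gene ADIPOR2 had a peak of 1233 at 48.2 kb.

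Of the 13 AMPK-related kinases, which LKB1 also activates for the most part, 3 had a peak within 10 kb (23.1%, 5.04 to 53.8), beside 11.5%. SNRK had 246 at 1597 bp, SIK3, a salt-inducible kinase, 238 at -634 bp in its promoter, and NUAK2 137 at 4098 bp. At any distance 7 of these 13 kinases had a named peak (53.8%, 25.1 to 80.8), beside 29.6%. The other 6 had none, among them BRSK1, BRSK2 and MELK, and also MARK4, inside which lay a peak named for another gene.

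Of the 22 genes of AMPK substrates, 5 had a peak within 10 kb (22.7%, 7.82 to 45.4), beside 11.5%. The hormone-sensitive lipase gene LIPE had 1626 at 7235 bp, and SREBF2, which encodes the activator of cholesterol synthesis SREBP-2, 359 at -1175 bp. PFKFB2, whose product makes the glycolytic activator fructose 2,6-bisphosphate, had 187 at 302 bp. TXNIP, an arrestin that lowers glucose uptake, had 82.0 at 5931 bp and SREBF1 had 61.4 at -4871 bp. No peak was named for ACACA or ACACB, which encode the acetyl-CoA carboxylases, classical AMPK substrates of fatty acid metabolism. PPARGC1A, which encodes PGC-1α, had 4 peaks, none of them within 50 kb; the highest score was 560, at 248.1 kb.

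Subunit genes of other signalling kinases are given for comparison. Of the 7 subunit genes of protein kinase A, 2 had a peak within 10 kb (28.6%, 3.67 to 71.0), beside 11.5% of all protein-coding genes, PRKAR2B with 90.6 at 3516 bp and PRKAR1A with 82.2 at 842 bp. Of the 9 subunit genes of the mTOR complexes, 0 had a peak within 10 kb, which allows up to 33.3%, beside 11.5%, and 5 had one at any distance (55.6%, 21.2 to 86.3), beside 29.6%. The AMPK genes had 2 of 9 and 3 of 9, and the difference from these lists was not tested. Counted by the transcript in which a peak lay, the protein kinase A list had 2 of 7 (28.6%), beside 18.6%. The mTOR list had 4 of 9 (44.4%) by that count.

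**Figure D3:**
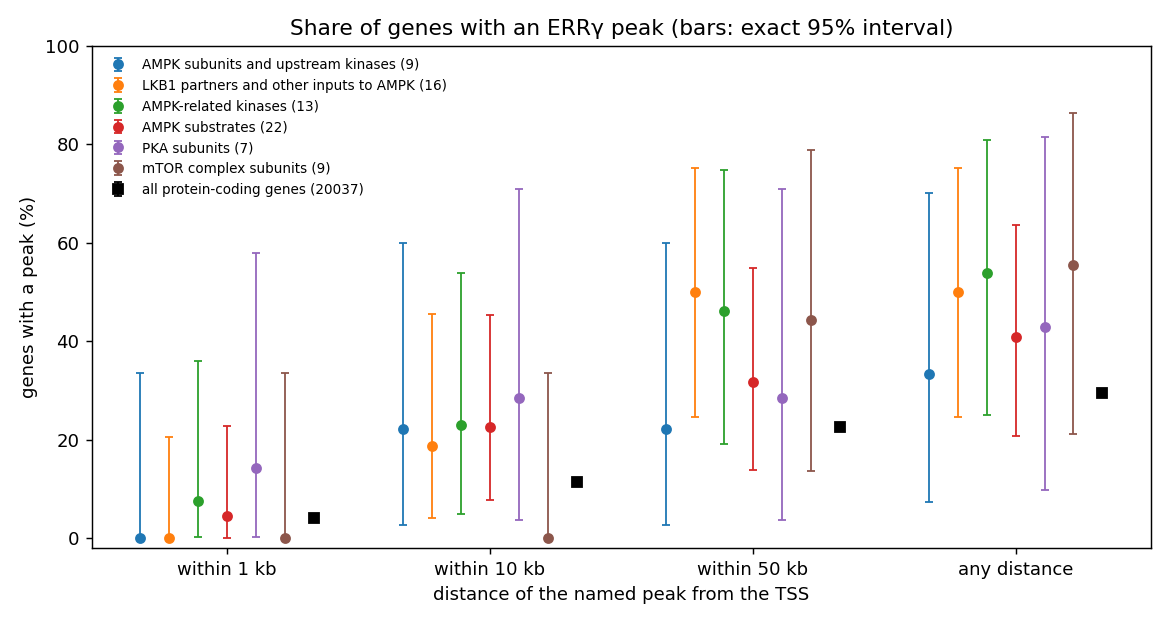
Percent of genes with an ERRγ peak by distance from the TSS for the AMPK genes, the 3 pathway lists, the protein kinase A and mTOR lists, and all 20037 protein-coding genes (black squares); bars are exact 95% intervals. The interval of the 9 AMPK genes covers the black square at every distance, from 0% beside 4.16% within 1 kb to 33.3% beside 29.6% at any distance.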

How the data were processed

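The tools named in the submitters' processing notes are HOMER 3.18, MACS 1.4.1 and BWA 0.5.9, with the hg19 build. Their roles, the peak threshold, the duplicate handling and any pooling are not given in these sources. The deposited columns, per the file headers, are the position of each peak, a score without a unit, the signed distance to the nearest TSS, an annotation, GC and CpG content and a conservation score. The deposited GC and CpG values are fractions, although their headers say percent. The read depth is unknown.

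Peaks were joined by gene identifier to RefSeq (GRCh38.p14; 15153 of 15223 peaks matched), used for symbols, biotypes, transcript names and gene order. The 20037 protein-coding genes are those of GRCh38.p14. Any of them absent from the older annotation of the peaks counted as without a peak, which lowers the background shares. A peak lay inside a gene when its annotation named a transcript of it. Shares have exact Clopper-Pearson 95% intervals, and a count of 0 a limit of 3 counts. Only the 10 kb distance filter and the merging of peaks were run on simulated data with planted answers, as a check of the code. Counts by transcript, the peak-free stretches and the motif search were not checked in this way. Each pathway list is represented by up to 6 genes with the highest score within 10 kb, all that had one, and other genes named were chosen after their values were seen. The genes and lists were chosen with earlier results of these data known. Python 3.11.15, pandas 2.3.3 and scipy 1.17.1 were used. Alternatives were other distances, the upper 50% and 10% of peaks by score, merging within 500 bp, and counting the annotated transcript.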

Additional observations from a re-analysis of the deposited data

How the results depend on the processing

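The 2 AMPK genes with a peak within 10 kb remained 2 within 50 kb and with the upper 50% of the peaks by score, where 7.24% of all protein-coding genes had a peak within 10 kb. They became 3 at any distance and 3 when the gene of the annotated transcript also counted, beside 21.8% of all protein-coding genes. The count was 0 within 1 kb, beside 4.16%, and 0 with the upper 10% of the peaks, beside 1.83%; at such shares 9 genes can hold 0 without differing from the rest. Of the 4 peaks, 4 were left after merging within 500 bp, 3 in the upper 50% and 0 in the upper 10%, which begins at a score of 592. The 11 pathway genes within 10 kb became 2 within 1 kb (3.92%, beside 4.16%), 21 within 50 kb (41.2%, beside 22.6%) and 24 at any distance (47.1%, beside 29.6%). Within 10 kb they became 9 with the upper 50% (17.6%, beside 7.24%) and 2 with the upper 10% (3.92%, beside 1.83%). Leaving out a library was not possible, since the list is merged. No paired analysis was possible because the list holds no value per library. With 9 genes, the counts within 1 kb and 10 kb still allowed shares several times the background, up to 33.3% and 60.0%.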
